A study of Homo sapiens with 3 samples.

Results

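The protein kinase C isoforms described here are 9 genes (PRKCA, PRKCB, PRKCD, PRKCE, PRKCH, PRKCI, PRKCQ, PRKCZ and PRKD1) of 22827 in the deposited table, matched by symbol to their Ensembl identifiers. The family was chosen by the PRKCH read counts, which had shown a large deficit in the USP39 knockout, so the values of USP39-KO against control are a description. RNA was sequenced from Hep3B, a human hepatocellular carcinoma cell line, in 3 libraries, with 1 library each of control cells, of cells with a USP39 knockout (USP39-KO) and of cells with a SIRT7 knockout (SIRT7-KO). USP39 is a spliceosome protein related to ubiquitin proteases, and SIRT7 is a nuclear NAD-dependent deacylase. The sources used here do not say how the knockouts were made, whether each is a single clone, or what treatment the control received. With 1 library per group there is no replicate error and no test, and every interval below is an exact 95% interval that covers counting error only. The ratios therefore compare these libraries, not the conditions.

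Protein kinase C enzymes are serine/threonine kinases that carry signals from membrane lipids. Receptors activate phospholipase C, which releases diacylglycerol and, through inositol trisphosphate, calcium. Conventional isoforms (PRKCA, PRKCB) need both diacylglycerol and calcium, the calcium-independent isoforms (PRKCD, PRKCE, PRKCH, PRKCQ) need diacylglycerol alone, and atypical isoforms (PRKCI, PRKCZ) respond to neither and work with partner proteins such as PAR6. PRKD1 encodes protein kinase D1, once named PKC mu, which has a kinase domain of another family and is activated downstream of PKC. In liver, PKC isoforms are known for signalling from hormone receptors to metabolism and bile transport, and atypical isoforms for hepatocyte polarity.

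Library totals were 16151522 to 19427940 counts. In the libraries named for them, USP39 stood at 0.688 times and SIRT7 at 0.736 times the level of the control, so each target was lowest in the library named for it, with most of its reads still present. The label of a liver cancer line was checked against 15 hepatocyte and liver cancer markers. Of these, 11 had under 10 reads in every library, and albumin (ALB), AFP, TTR, APOA2, APOB, AHSG and GPC3 had none. Their summed CPM (counts scaled to library size) was 9.83 for the control, 2.98 for USP39-KO and 2.51 for SIRT7-KO. A 0 in this table does not by itself show a silent gene, because RPL7A, RPS18 and SF3B4, which nearly all cells use, were also listed at 0 in all libraries. That does not cover markers with a few reads. In control, USP39-KO and SIRT7-KO, APOA1 had 2, 2 and 0 reads, SERPINA1 2, 0 and 1, and FGA 6, 0 and 1. The markers thus did not bear out the label, and the identity of the cells was not tested. PRKCB, PRKCH and PRKCQ are abundant in lymphocytes, and 12 leukocyte markers summed to 0.566, 1.15 and 0.797 CPM in control, USP39-KO and SIRT7-KO. PTPRC, CD3D, CD3G, CD2, CD79A, MS4A1 and CD68 were at 0 reads throughout, and CD14, a monocyte marker, had the most reads of the 12, with 8, 10 and 12. Fibroblast markers summed to 118, 139 and 114 CPM, mostly COL1A1, and endothelial markers to 1.03 to 1.29 CPM.

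The upstream windows of PRKCH and PRKCB are shown because these 2 genes had the lowest and the highest ratios to control of any member. Each window runs from 250 to 41 bases before the RefSeq start, on the plus strand of GRCh38.p14, and capitals mark GC boxes (GGGCGG, searched on both strands) and the octamer motif ATGCAAAT (both strands).
PRKCH, chr14:61321329-61321538: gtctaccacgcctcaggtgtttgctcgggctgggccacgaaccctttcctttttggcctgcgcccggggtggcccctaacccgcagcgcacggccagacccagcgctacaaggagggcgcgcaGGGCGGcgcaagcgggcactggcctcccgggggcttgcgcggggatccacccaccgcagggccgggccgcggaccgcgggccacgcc
PRKCB, chr16:23835733-23835942: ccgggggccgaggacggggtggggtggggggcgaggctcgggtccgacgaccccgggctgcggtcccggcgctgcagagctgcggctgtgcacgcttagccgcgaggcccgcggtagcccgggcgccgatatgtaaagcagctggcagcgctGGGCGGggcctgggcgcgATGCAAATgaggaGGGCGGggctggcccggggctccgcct
The PRKCH window held 24 CpG dinucleotides and the PRKCB window 27, against a median of 8 over 35116 windows of the same length. A GC box lay in 37.2% of all windows and in 11 of the 15 windows of the 9 members. PRKCH had 1 GC box and PRKCB 2. The octamer, which was looked for after the sequence had been seen, lay in 1.41% of all windows, and PRKCB had 1. Neither window held TATAAA or CCAAT on either strand. These letters describe the windows and are not evidence of a bound factor, and a count per gene cannot tell which start was used.

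The atypical isoform PRKCI was the most abundant family member in every library, and PRKCA was next. Levels between genes are given per length, as RPKM (CPM per kilobase of the listed length). PRKCI stood at 37.4 RPKM for the control, 38.3 for USP39-KO and 43.7 for SIRT7-KO. PRKCA stood at 13.5, 10.9 and 16.1 RPKM in the same order, 2.77 times below PRKCI in the control. These 2 genes were high in all libraries, while the other members were at 4.93 RPKM or lower.

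In the control the order went on with PRKCZ (4.72 RPKM), PRKCH (2.47), PRKCE (1.59), PRKD1 (0.954) and PRKCB (0.0923). The counting intervals of neighbours in that order were apart down to PRKCB. In USP39-KO, PRKCH came after PRKCB instead of ahead of PRKCE. In SIRT7-KO the intervals of PRKCH and PRKCZ overlapped, as did those of PRKCB and PRKD1, so counting error does not order those pairs. PRKCD, a widely expressed isoform known for roles in apoptosis, had 0 reads in all 3 libraries. By counting alone the exact intervals reach up to 0.0559, 0.0660 and 0.0666 RPKM in control, USP39-KO and SIRT7-KO. As for RPL7A, RPS18 and SF3B4, however, a 0 in every library may not bound the true level. PRKCQ, the isoform of the T cell receptor pathway, had 0, 1 and 0 reads. No ratio is given for these 2 genes.

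**Figure D1:**
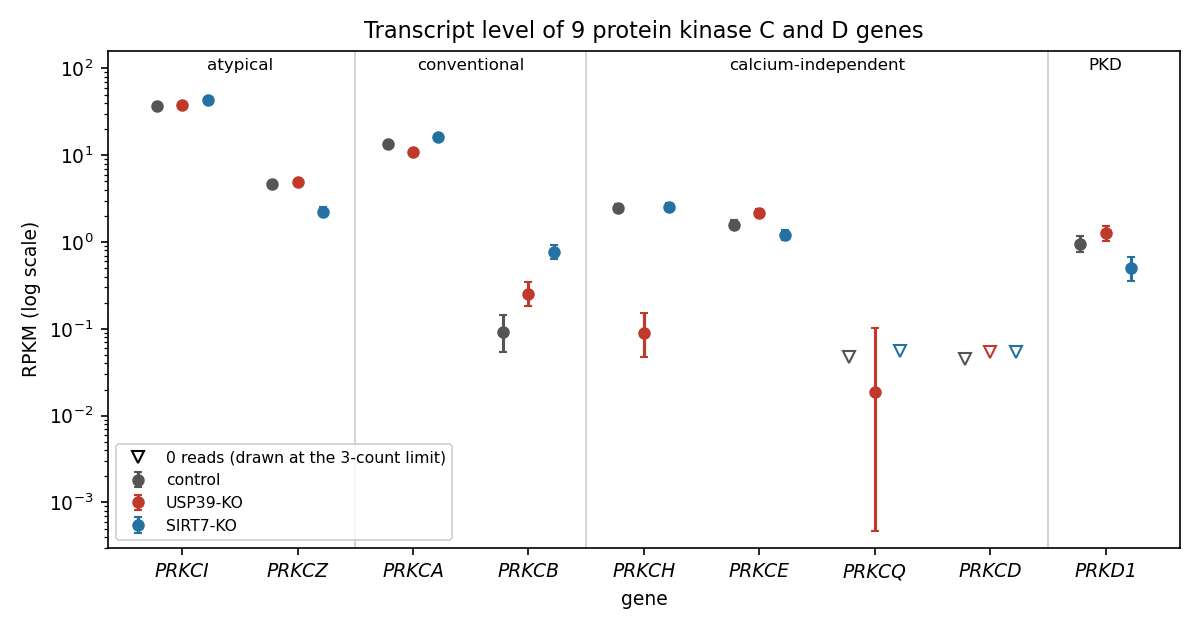
RPKM (log axis) of each of the 9 genes, 1 point per library (colours) with an exact 95% Poisson interval of the counts. Open triangles mark 0 reads, drawn at the level of 3 counts. PRKCI and PRKCA are highest throughout, PRKCH is low only in USP39-KO (0.0897 RPKM), and PRKCB is lowest in the control.

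As shares of the summed RPKM of the 9 genes, PRKCI made up 61.6% for the control, 66.1% for USP39-KO and 65.1% for SIRT7-KO. PRKCA made up 22.2%, 18.9% and 24.0%. PRKCH made up 4.06% in the control and 3.79% in SIRT7-KO but 0.155% in USP39-KO. PRKCZ made up 7.77%, 8.49% and 3.32%. The sum over the 9 genes was 60.7, 58.0 and 67.1 RPKM. The sum of the 4 calcium-independent isoforms was 4.06 RPKM for the control, 2.27 for USP39-KO and 3.76 for SIRT7-KO, and in USP39-KO nearly all of it was PRKCE. The atypical sum was 42.1, 43.3 and 46.0 RPKM, and the conventional sum 13.6, 11.2 and 16.9. With raw reads in place of RPKM the control share was 48.7% for PRKCI and 33.6% for PRKCA.

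**Figure D2:**
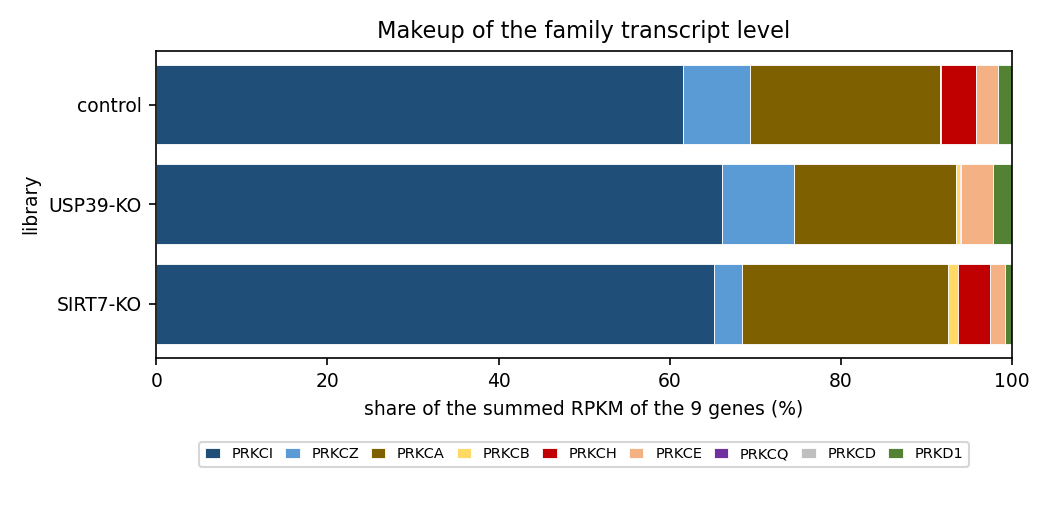
Share of the summed RPKM (percent, horizontal axis) held by each of the 9 genes in each library, 1 bar per library. The PRKCH segment is 4.06% in the control and 0.155% in USP39-KO, and the PRKCZ segment is smallest in SIRT7-KO, at 3.32%.

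The size rule used below calls a gene higher or lower where some library holds at least 10 counts of it, the compared pair differs at least 2-fold, and the interval of their ratio leaves out 1. Of the 9 members, 7 had enough counts, all but PRKCD and PRKCQ. In USP39-KO against control, 1 member was higher (PRKCB) and 1 lower (PRKCH), where 1.49% of 12726 genes were higher and 3.37% lower. This contrast was used to choose the family, so nothing is read from those counts. In SIRT7-KO against control, 1 of 7 was higher (PRKCB) and 1 lower (PRKCZ), against 3.02% and 4.05% of all genes. At 1.5-fold PRKD1 was lower there as well, beside 7.83% of all genes. Between the knockouts, 2 of 7 were higher in USP39-KO (PRKCZ and PRKD1) and 2 lower (PRKCB and PRKCH), beside 3.51% and 5.03% of all genes, and this comparison uses the USP39-KO PRKCH count that chose the family, so nothing is read from it either. The first and second of these comparisons share the control library, and the direct comparison uses both knockout libraries again, so the counts are not independent. The median log2 ratio of the 7 members was 0.06 in USP39-KO and 0.05 in SIRT7-KO against control, beside 0.00 and -0.01 over all 12726 genes.

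**Figure D3:**
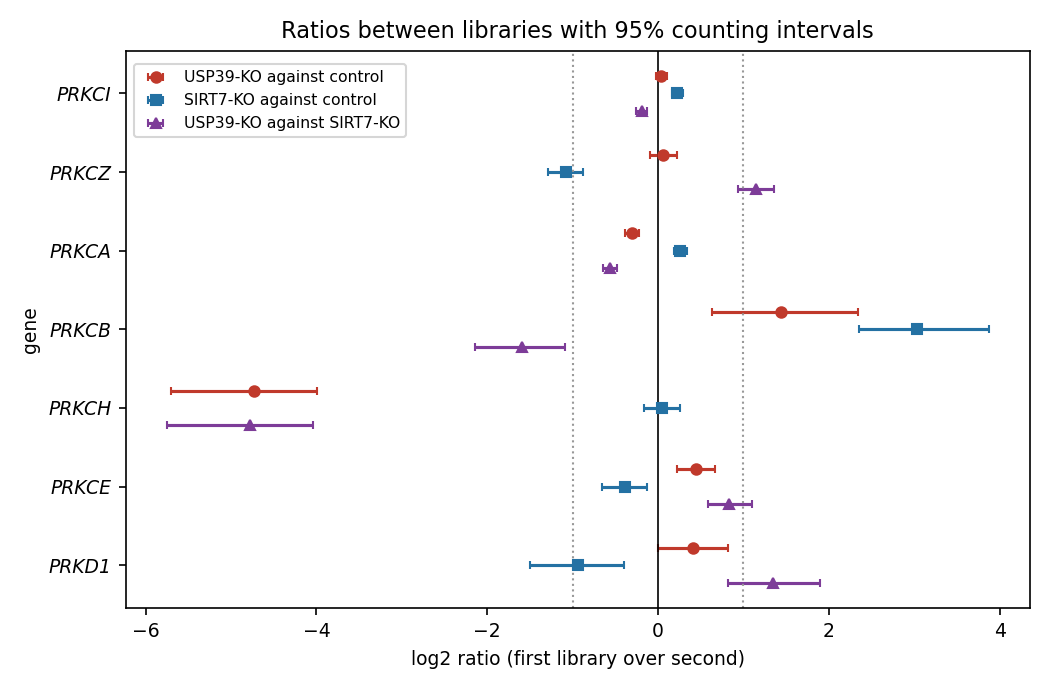
Log2 ratio (horizontal axis) of the 7 members that reached 10 counts in some library, for 3 pairs of libraries, with exact 95% counting intervals. Dotted lines mark 2-fold. PRKCH lies near -4.7 in both comparisons of USP39-KO and near 0 in SIRT7-KO against control, and PRKCB lies right of 0 in both knockouts against control.

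Among the calcium-independent isoforms, PRKCH (PKC eta; ENSG00000027075; chromosome 14, 61187559 to 61550976, plus strand, GENCODE 29 on GRCh38) is known from differentiating epithelia and from lymphocytes. It had 422 control reads, 13 USP39-KO reads and 366 SIRT7-KO reads, or 21.7, 0.790 and 22.4 CPM. The control and SIRT7-KO libraries were level and the USP39-KO library alone was low. USP39-KO had 27.5 times less than control (interval 15.9 to 52.1) and 28.4 times less than SIRT7-KO (16.4 to 53.8). In SIRT7-KO against control the ratio was 1.03 (0.895 to 1.19). In bulk RNA, fewer expressing cells and less RNA per cell cannot be told apart.

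PRKCE (PKC epsilon; chromosome 2, 45651345 to 46187990), which binds diacylglycerol as PRKCH does and is known for promoting growth, did not share that deficit. It had 306 control reads, 353 USP39-KO reads and 196 SIRT7-KO reads. The highest library was USP39-KO and the lowest SIRT7-KO. PRKCE was at 1.36 times control in USP39-KO (1.17 to 1.59) and at 0.763 times in SIRT7-KO (0.634 to 0.915). Neither ratio reached 2-fold, nor did the 1.79 (1.496 to 2.14) between the knockouts, although all 3 intervals excluded 1.

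Among the conventional isoforms, PRKCB (PKC beta; ENSG00000166501; chromosome 16, 23835946 to 24220611, plus strand) is best known from B cell receptor signalling. It had 18 control reads, 42 USP39-KO reads and 127 SIRT7-KO reads, or 0.926, 2.55 and 7.78 CPM. The control was lowest and SIRT7-KO highest. PRKCB was at 2.75 times control in USP39-KO (1.55 to 5.08) and at 8.40 times in SIRT7-KO (5.11 to 14.6), and USP39-KO had 3.05 times less than SIRT7-KO (2.14 to 4.43). Even at its highest, in SIRT7-KO, its 0.775 RPKM was far below the 16.1 RPKM of PRKCA. Beside it, the 12 leukocyte markers together were at 0.566 CPM in the control and 0.797 CPM in SIRT7-KO, and their part in the PRKCB values was not tested.

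PRKCA (PKC alpha; chromosome 17, 66302636 to 66810743), the widely expressed conventional isoform, had 2923 control reads, 2008 USP39-KO reads and 2937 SIRT7-KO reads. After scaling to library size the order was SIRT7-KO, control, USP39-KO. Its ratio to control was 0.811 (0.766 to 0.859) in USP39-KO and 1.20 (1.14 to 1.26) in SIRT7-KO. Differences of this size exceed counting error at this depth, but 1 library per group does not show whether they exceed the spread between cultures.

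Of the atypical isoforms, PRKCZ (PKC zeta; ENSG00000067606; chromosome 1, 2050470 to 2185395, plus strand) passed the size rule in SIRT7-KO and PRKCI (PKC iota; chromosome 3, 170222365 to 170305981) did not. Both bind PAR6 in the polarity complex, and PRKCI is known as an oncogene of epithelial cancers. PRKCZ had 700 control reads, 619 USP39-KO reads and 278 SIRT7-KO reads, or 36.03, 37.6 and 17.0 CPM. The control and USP39-KO were level and SIRT7-KO was low. PRKCZ had 2.12 times less in SIRT7-KO than in control (1.84 to 2.44), and its ratio in USP39-KO was 1.04 (0.935 to 1.16). The 3′ end of PRKCZ overlaps FAAP20 on the opposite strand by 935 bases in GENCODE 29, and the sources used here do not say how reads there were assigned. FAAP20 had 432, 413 and 369 reads. PRKCI had 4243, 3685 and 4169 reads, a ratio to control of 1.03 (0.981 to 1.07) in USP39-KO and of 1.17 (1.12 to 1.22) in SIRT7-KO. Summed per length, the 2 atypical isoforms were at 1.09 times control in SIRT7-KO.

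PRKD1 (protein kinase D1; chromosome 14, 29576479 to 30191898, minus strand), known for regulating vesicle fission at the Golgi, had 96 control reads, 108 USP39-KO reads and 42 SIRT7-KO reads. SIRT7-KO was the lowest library, as for PRKCZ and PRKCE. The ratio to control was 0.521 in SIRT7-KO (0.353 to 0.756), just short of 2-fold, and 1.33 in USP39-KO (0.999 to 1.77). Between the knockouts USP39-KO had 2.55 times the SIRT7-KO level (1.77 to 3.73).

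The neighbours of PRKCH on chromosome 14 did not show its deficit. Of the 5 protein-coding genes on each side in the table, 7 had enough counts, and in USP39-KO against control their log2 ratios lay between -0.49 and 0.37, none past 2-fold. SLC38A6, an amino acid transporter family gene 104 kb upstream, had 108 control reads, 118 USP39-KO reads and 171 SIRT7-KO reads. HIF1A, the hypoxia-inducible transcription factor subunit 145 kb downstream, had 3593, 2169 and 4567 reads. Its log2 ratio to control was the lowest of the 7 in USP39-KO at -0.49 (-0.57 to -0.41), and it was 0.60 (0.53 to 0.66) in SIRT7-KO. Between the knockouts HIF1A was lower by the size rule in USP39-KO, at -1.09 (-1.16 to -1.01). TMEM30B, which lies inside PRKCH on the opposite strand, and AL355916.2, which overlaps its end on the same strand, had 0 reads in all libraries. SYT16 had at most 1 read.

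**Figure D4:**
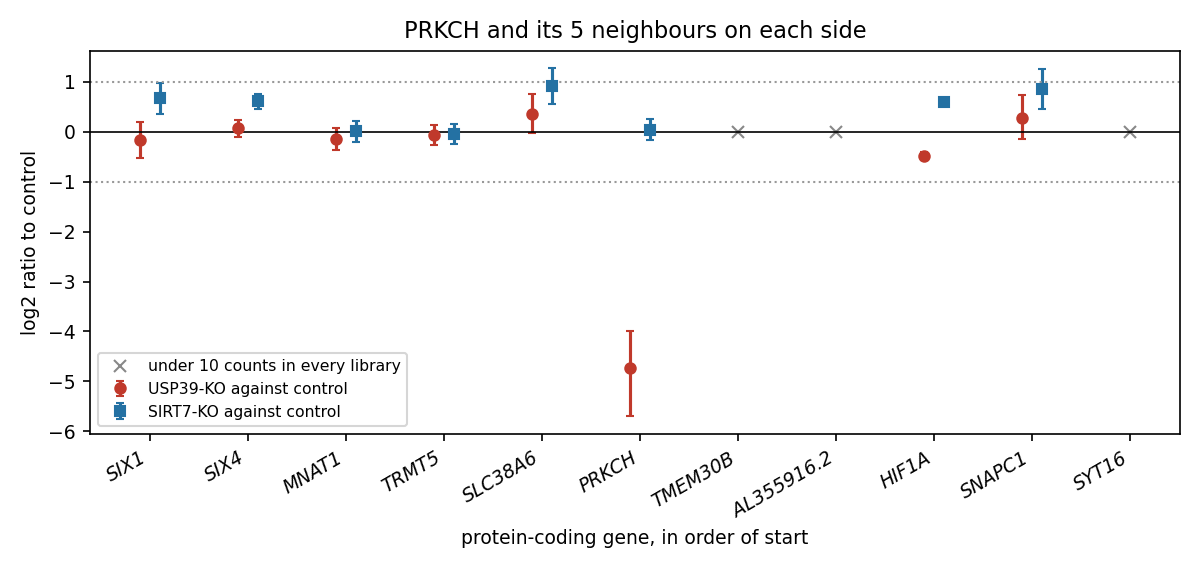
Log2 ratio to control (vertical axis) of PRKCH and the 5 protein-coding genes on each side, in order of start, with exact 95% counting intervals; crosses mark genes under 10 counts in every library. PRKCH alone lies below the 2-fold line in USP39-KO, at -4.73, while its measured neighbours lie between -0.49 and 0.37.

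Genes with a pattern most like that of PRKCH were sought among the other protein-coding genes that reached 100 counts in some library, by the distance between pairs of log2 ratios to control. The nearest was TNFRSF11B, the decoy receptor osteoprotegerin, with 70 control reads, 4 USP39-KO reads and 136 SIRT7-KO reads (distance 1.52). ABCA8, an ABC transporter, came next with 69, 5 and 148 reads (1.84), then the imprinted gene PEG10 with 2212, 261 and 1910 (1.89). PLSCR4, a scramblase family gene, had 120, 17 and 137 reads (2.22), and HPD, an enzyme of tyrosine breakdown, 36, 3 and 105 (2.34). These 5 were picked for closeness to PRKCH, so low values in USP39-KO follow from the choice, and the set depends on the depth asked for: with at least 10 counts none of the 5 was among the nearest, and the nearest was CYP2D6, at a distance of 0.212. TNFRSF11B, ABCA8 and HPD were higher by the size rule in SIRT7-KO, where PEG10 was level at 1.03 times control (0.966 to 1.09).

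Genes around PKC in the pathway were read from 9 lists of 89 genes, of which 73 had enough counts. In USP39-KO against control 1 of the 73 was higher and 2 lower (1.37% and 2.74%, beside 1.49% and 3.37% of all genes), with a median log2 ratio of -0.01. In SIRT7-KO against control 1 was higher and 10 lower (1.37% and 13.7%, beside 3.02% and 4.05% of all genes), with a median of -0.09. The 10 lower genes were 4 other diacylglycerol receptors, 2 scaffolds, 2 polarity genes, 1 phospholipase C and 1 substrate. With at least 100 counts, 1 of these receptors, 2 scaffolds, 2 polarity genes and 1 substrate were left. The lists were chosen with earlier results of these data known, so nothing is read from the difference from all genes.

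The supply of diacylglycerol was read first. Of 11 measured phospholipase C genes, PLCB2 was higher in USP39-KO (44 reads in control, 98 in USP39-KO; log2 ratio 1.38, 0.87 to 1.94), and PLCD1 was higher (23 to 56 reads, 1.51) and PLCB4 lower (10 to 1 reads) in SIRT7-KO. PLCB4 reached 10 counts in the control alone, the library where it was high, so nothing is read from its call. With at least 100 counts no phospholipase C gene passed the rule in either knockout. The abundant PLCB3 was at 0.01 in USP39-KO and 0.06 in SIRT7-KO, and list medians were 0.07 and 0.05. None of the 7 measured diacylglycerol kinases, which turn diacylglycerol into phosphatidic acid, passed the size rule in either knockout. In USP39-KO DGKH was at -0.42, DGKA and DGKE at -0.29, DGKD at 0.12, DGKZ at 0.12 and DGKQ at 0.01. Their median there was -0.29, but -0.14 with at least 100 counts and 0 without a filter, and in SIRT7-KO it was 0.03.

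Other proteins bind diacylglycerol through the same C1 domain as PKC. The list of these also holds UNC13D, a relative of UNC13A that lacks this domain but counts among the 7 measured genes. In USP39-KO none of 7 measured passed the size rule (median -0.31), and CHN1, a Rac GTPase-activating protein, was at 0.89. In SIRT7-KO 4 of the 7 were lower and none higher (median -1.002, and -0.48 both with at least 100 counts and without a filter). RASGRP1, a Ras exchange factor, had 33 control reads and 5 SIRT7-KO reads, and RASGRP3 had 48 and 17. CHN2 had 32 control reads, 15 USP39-KO reads and 0 SIRT7-KO reads. The interval of its ratio starts at 6.87-fold lower in SIRT7-KO than in control and has no upper end. UNC13A, a vesicle priming factor, had 177 and 74 reads and sat at the 2-fold line (-1.002, -1.42 to -0.61). UNC13A was no longer past the rule with DESeq2 size factors or library totals, where 3 of the 7 were lower. With a filter of 100 counts UNC13A alone of the 4 was measured, so none of the 4 calls held under every setting. The abundant member UNC13D was at -0.28. The control depth of RASGRP1, RASGRP3 and CHN2 was under 50 reads each.

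PKC is made competent by PDPK1 and mTORC2 and folded with HSP90 and CDC37, and PHLPP phosphatases dephosphorylate it. None of these 11 genes passed the size rule in either knockout, with medians of 0.03 and -0.02. RICTOR, the mTORC2 subunit, was at -0.21 in USP39-KO and 0.40 in SIRT7-KO, and HSP90AB1 at 0.05 and 0.29. Relatives of the family outside the 9 genes (PRKD2, PRKD3, PKN2 and PKN3) also had no gene past the rule. PRKD2, the sister of PRKD1, was at -0.02 in USP39-KO and 0.65 (0.48 to 0.83) in SIRT7-KO, and PKN3, the most abundant of these 4 per length, at 0.27 and 0.07.

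Scaffolds hold PKC near its substrates. In USP39-KO none of 10 passed the rule. In SIRT7-KO AKAP12, also named gravin, had 485 reads against 1825 in the control (log2 ratio -1.66, -1.81 to -1.51), and AKAP5 had 41 against 152 (-1.63, -2.17 to -1.13). In USP39-KO these genes had 1720 and 132 reads. WWC1, an atypical PKC partner, was at -0.54 in USP39-KO and -0.76 in SIRT7-KO, and RACK1, the most abundant scaffold, at -0.05 and -0.18.

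Polarity genes, the partners of PRKCI and PRKCZ, had 1 of 11 lower in USP39-KO and 2 lower in SIRT7-KO. The 1 in USP39-KO was PARD6A (28 to 6 reads, log2 ratio -1.90, -3.55 to -0.68). With at least 100 counts no polarity gene was lower in USP39-KO. CRB3, the Crumbs protein that recruits the complex to the apical membrane, had 215 control reads, 112 USP39-KO reads and 28 SIRT7-KO reads (-2.67, -3.31 to -2.12 in SIRT7-KO). PATJ had 556, 311 and 231 reads (-1.01, -1.24 to -0.79 in SIRT7-KO), and was no longer past the rule with library totals. LLGL2, a substrate of atypical PKC, was at -0.02 in USP39-KO and -0.56 in SIRT7-KO, and CDC42 at -0.11 and -0.09.

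Of 8 measured PKC substrates, the adducin ADD3 alone passed the rule, with 665 control reads, 127 USP39-KO reads and 8 SIRT7-KO reads. MARCKSL1 was at -0.13 in USP39-KO and 0.49 in SIRT7-KO, NRGN at 0.23 and 0.50, PPP1R14B at -0.40 and -0.25, and the abundant MSN at -0.25 and 0.12. MARCKS was not analysed here. In the CARD-BCL10-MALT1 complexes that couple PKC to NF-kB, none of 4 measured genes passed the rule. MALT1 was at 0.16 in USP39-KO and 0.72 (0.56 to 0.88) in SIRT7-KO, and CARD14 at 0.18 and -0.59 (-0.67 to -0.51).

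**Figure D5:**
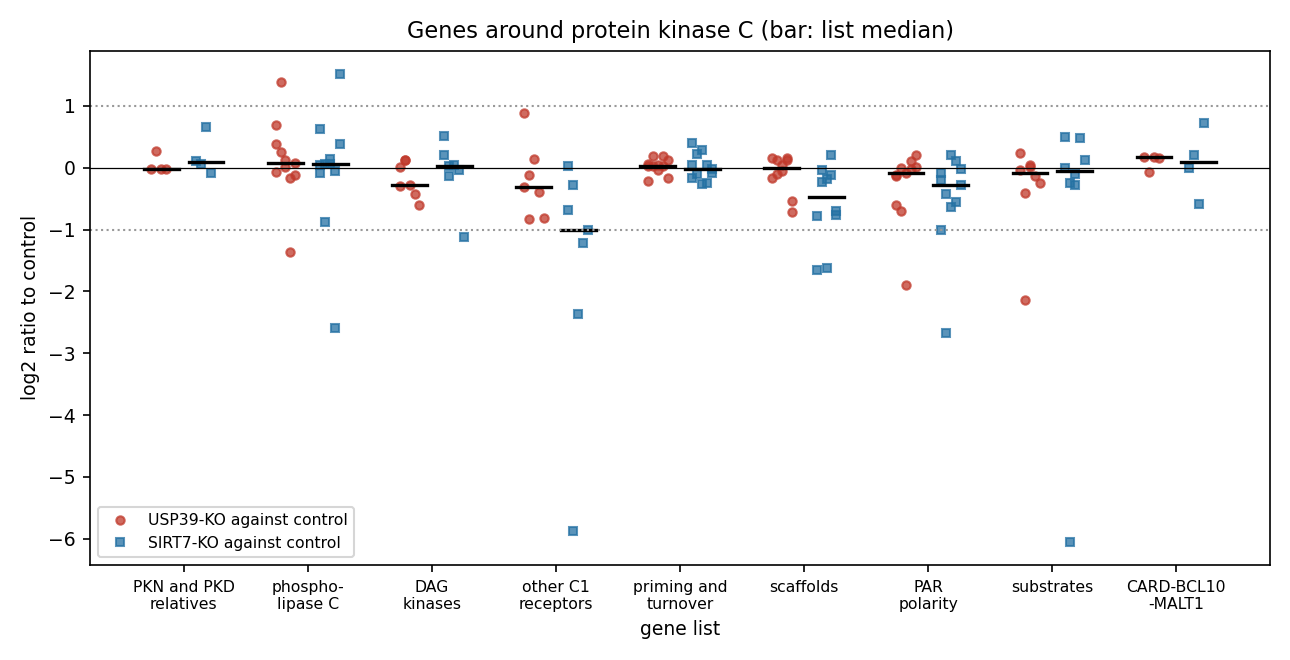
Log2 ratio to control (vertical axis) of the measured genes of 9 lists around PKC, 1 point per gene, circles for USP39-KO and squares for SIRT7-KO, with a bar at each list median and dotted lines at 2-fold. Most points lie within 2-fold of control. The lowest SIRT7-KO point, at -6.04, is the substrate ADD3, and the C1 receptor point near it is CHN2 at 0 reads, whose place depends on the prior count.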

How the data were processed

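RNA was taken up in Trizol and prepared with an Illumina TruSeq kit, per the labels' protocols. The aligner, counter, build and annotation were not given in the sources used here. Per the file headers, the authors deposited read counts, whole and not normalized, beside gene lengths and FPKM. The deposited FPKM equal counts scaled by length and library total within a relative tolerance of 1e-06 for every gene with reads, and were not used further.

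Symbols came from a gene name table and GENCODE 29 by Ensembl identifier, and 22827 identifiers were read. Listed lengths of the 9 genes were 90.5 to 100% of the GENCODE 29 exon union. Upstream windows came from RefSeq, with at least 1 window for each of the 9 genes. CPM and RPKM used TMM effective library sizes (edgeR 4.0.16). Log2 ratios used 0.5 prior counts, scaled by library, and intervals are exact (Clopper-Pearson) 95% intervals of the 2 counts. Folds in plain times use no prior. PCR duplicates cannot be told from separate molecules here, and intervals and floors therefore cover counting error only. The size rule was a log2 ratio of at least 1 in size with an interval excluding 0, over the 12726 genes that reached 10 counts in some library. As groups hold 1 library, dispersion could not be estimated, so neither edgeR nor DESeq2 1.42.0 tests were run, and DESeq2 gave alternative size factors only.

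The members and lists were chosen with earlier results of these data known. All 9 members and both targets are named. From the lists, 3 genes are not reported here and enter no list value. From a pathway list, up to 4 genes farthest from 0 that reached 100 counts in some library could be named. The most abundant gene per length and any gene past the size rule could be named too. Values of DGKZ and of the cell type markers were given outside this rule. Also named were 5 protein-coding neighbours on each side and the 5 genes nearest to PRKCH. RPL7A, RPS18 and SF3B4 were named after their values were seen. Steps were tested on simulated counts.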

Additional observations from a re-analysis of the deposited data

How the results depend on the processing

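Under DESeq2 size factors, library totals and a prior of 2 counts, each of the 21 member ratios stayed within its interval and on its side of the size rule. Member counts were the same under both scalings, without a filter and with at least 100 counts. The 100-count filter could not change them, because all 7 measured members reached 100 counts in some library. PRKCB did so in SIRT7-KO alone, with 127 reads beside 18 in control and 42 in USP39-KO. PRKD1 did so in USP39-KO alone, with 108 reads. At 1.5-fold, 2 members were lower in SIRT7-KO against control (PRKCZ and PRKD1) in place of 1, and 3 were higher in USP39-KO than in SIRT7-KO (PRKCE, PRKCZ and PRKD1) in place of 2. Over all genes, with at least 100 counts, 48 were higher and 126 lower in USP39-KO against control, 136 and 210 in SIRT7-KO against control, and 221 and 281 between the knockouts. At 1.5-fold these were 406 and 814, 917 and 997, and 1006 and 1316. By construction these settings test fewer genes or lower the bar. The number of all genes that reached 100 counts is not given here, so the counts at that filter cannot be read as shares. Among the C1 receptors lower in SIRT7-KO, 1 of the 4 was left with at least 100 counts and 3 with either other scaling. With library totals 1 polarity gene was lower in place of 2. No paired analysis was possible because each group has 1 library. Of the members with a ratio, PRKCB had the fewest control reads, 18.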

Other observations

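PRKD1 lies on the same chromosome as PRKCH, and its own neighbours were read in the same way. Of the 5 protein-coding genes on each side, 5 had enough counts, and none passed the size rule in either knockout against control. STXBP6, a syntaxin-binding protein gene, had 157 control reads, 153 USP39-KO reads and 83 SIRT7-KO reads, a log2 ratio of -0.67 (-1.07 to -0.28) in SIRT7-KO. G2E3, a ubiquitin ligase gene on the other side, had 547, 548 and 626 reads, or 0.45 (0.28 to 0.61) in SIRT7-KO. SCFD1, STRN3 and AP4S1 lay between -0.24 and 0.10 in USP39-KO and between -0.00 and 0.12 in SIRT7-KO.

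HNF4A, a transcription factor of the hepatocyte marker list, had 113 control reads, 29 USP39-KO reads and 7 SIRT7-KO reads, and FGB had 55, 1 and 2. Both were lower by the size rule in each knockout. Of the 9 kinase genes, 7 had enough counts for that rule, all but PRKCD and PRKCQ. None of these 7 was lower in both knockouts, and PRKCB was higher in both. Both PRKCB ratios use the same control library, with 18 reads, so they are not independent. The ratios of HNF4A and FGB share that library as well. How many of all genes were lower or higher in both knockouts is not given here, so the kinase genes and these markers have no common baseline. Whether the hepatocyte markers and the kinase genes are connected was not tested.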
